A study of Mus musculus with 45 samples.

Results

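The *Esrrb* locus held 53 of the 184964 open chromatin regions (OCRs) that the authors called in mouse embryonic stem cells (mESC). A peak was taken into the locus when its summit lay from 50 kb upstream of the 5′ end of *Esrrb* to 10 kb past its 3′ end. This is the interval chr12:86311117-86531628 of mm10. The rule used positions alone, but it was chosen with earlier results of these data known. *Esrrb* (ENSMUSG00000021255.17) is annotated on the plus strand at chr12:86361117-86521628, and the processed pseudogene *Gm48101* was the only other annotated gene in the interval. The 53 peaks were numbered E1 to E53 from 5′ to 3′.

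*Esrrb* encodes an orphan nuclear receptor that binds DNA as a monomer through an extended half-site and takes part in the naive pluripotency network, together with the Krüppel-like factors, TFCP2L1 and NANOG. SOX2 and OCT4 are transcription factors that bind DNA next to each other at many regulatory elements of mESC and act as pioneer factors, so that chromatin at their sites can close when they are removed. In ATACseq the transposase Tn5 inserts into accessible DNA, and the number of sequenced fragments over a peak is read as its accessibility.

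In each degron line an endogenous factor was fused to FKBP, and the compound dTAG-13 then targeted the fusion protein for degradation. SOX2-FKBP and NANOG-FKBP were homozygous clones of E14 mESC with the tag at the C-terminus, and for SOX2 the methods name IB10 mESC. OCT4-FKBP was a v6.5 line for which the tagged end and zygosity are not given in the sources used here. All were grown in serum-free medium with LIF and inhibitors of MEK and GSK3. Cells received 500 nM dTAG-13, or DMSO for the not treated (NT) group, so the controls carried the tag as well. SOX2-FKBP cells were collected at NT and at 0.5, 1, 2, 6 and 24 h post depletion (hpd), with 2 libraries in each group. OCT4-FKBP cells were collected at NT, 2, 6 and 24 hpd with 2 libraries each, and NANOG-FKBP cells at the same times with 2 NT libraries and 3 at each treated time. The sources used here do not say which libraries came from the independent SOX2-FKBP clone that the methods mention. Because parental strain and tagged factor change together, a difference between OCT4-FKBP and the other lines cannot be told apart from a difference between the cells. Clone and tagged factor also change together between SOX2-FKBP and NANOG-FKBP, so the same holds there.

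The 31 libraries held between 1817191 and 17575631 fragments in peaks. Replicate 2 of each treated NANOG-FKBP group stood apart, with 13.2 to 17.6% of its counts in mitochondrial peaks against 1.43 to 6.65% in the other 28 libraries. Chromosome 12 held 3.69 to 4.04% of the nuclear counts in every library. The 2 OCT4-FKBP libraries of 24 hpd were the shallowest of their line, with 7790459 and 6378962 fragments. Summed over the starts of *Pou5f1*, *Sox2*, *Nanog*, *Zfp42* and *Esrrb*, NT accessibility was 121 to 178 CPM (counts scaled to library size) per kb of peak in the 3 lines. The start of *T*, a mesoderm gene, lay between 2.78 and 8.04. The sums over the primitive endoderm genes *Gata6*, *Sox17* and *Foxa2* and the neural genes *Pax6* and *Sox1* were 17.5 to 33.5 and 13.7 to 28.5. These sums cover unlike numbers of genes. By gene, *Pou5f1*, *Nanog* and *Zfp42* held 22.8 to 52.7 and *Esrrb* 16 to 24. The start of *Sox2* held 11.2 to 14.6, within the range of *Sox17* (8.93 to 16.6) and overlapping *Tfap2c* (14 to 23). The starts of the trophectoderm genes *Cdx2*, *Gata3* and *Tfap2c* summed to 28.9 to 52.4 in NT libraries of the 3 lines. In OCT4-FKBP cells alone this sum was 42.5 to 52.4 in NT and 41.2 to 57.8 at 24 hpd, so the groups overlapped. There *Gata3* was 13.7 to 14 in NT and 16.8 to 22.3 at 24 hpd. *Tfap2c* (17.1 to 23 against 13.6 to 17.4) and *Cdx2* (11.3 to 15.7 against 10.8 to 18.1) overlapped between these groups.

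Of the 53 peaks, 15 had their summit in intergenic DNA, 33 in an intron and 5 in an exon or untranslated region. The sequences below are the 200 bases around the summits of 7 peaks, plus strand of mm10, shown because they are the peaks at the 2 downstream *Esrrb* transcript starts (E31, E43), the peak that fell first after SOX2 loss (E30), the one that fell first after OCT4 loss (E28), the one that fell after NANOG loss (E27), a peak that changed in both directions (E14) and a highly accessible intronic peak (E40). Capitals mark matches on either strand to a SOX core (CATTGT or CTTTGT), the ESRRB half-site (AAGGTCA) or a KLF box (GGGNGTGG). The windows at the 2 upstream starts overlap untranslated sequence and are not shown.
E31: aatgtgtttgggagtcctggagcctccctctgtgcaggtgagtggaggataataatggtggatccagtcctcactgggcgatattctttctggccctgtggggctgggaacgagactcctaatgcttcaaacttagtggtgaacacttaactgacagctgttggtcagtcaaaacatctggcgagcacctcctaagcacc
E43: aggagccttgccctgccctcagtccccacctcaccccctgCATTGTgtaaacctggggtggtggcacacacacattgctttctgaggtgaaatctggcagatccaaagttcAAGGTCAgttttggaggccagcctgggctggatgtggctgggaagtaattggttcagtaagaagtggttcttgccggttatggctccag
E30: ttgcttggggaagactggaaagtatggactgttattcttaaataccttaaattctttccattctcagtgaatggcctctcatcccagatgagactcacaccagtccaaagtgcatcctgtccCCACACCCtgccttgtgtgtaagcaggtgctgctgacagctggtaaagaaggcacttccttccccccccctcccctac
E28: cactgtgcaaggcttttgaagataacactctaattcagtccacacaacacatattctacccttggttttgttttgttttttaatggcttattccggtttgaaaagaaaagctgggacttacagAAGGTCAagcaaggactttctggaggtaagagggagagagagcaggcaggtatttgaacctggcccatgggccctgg
E27: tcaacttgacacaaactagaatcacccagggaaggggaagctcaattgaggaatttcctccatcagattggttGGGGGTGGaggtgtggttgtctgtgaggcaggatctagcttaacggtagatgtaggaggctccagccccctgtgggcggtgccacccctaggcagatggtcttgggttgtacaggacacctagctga
E14: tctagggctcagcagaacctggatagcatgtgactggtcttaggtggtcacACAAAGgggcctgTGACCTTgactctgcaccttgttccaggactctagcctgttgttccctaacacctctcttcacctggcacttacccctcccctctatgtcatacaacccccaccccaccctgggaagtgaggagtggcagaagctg
E40: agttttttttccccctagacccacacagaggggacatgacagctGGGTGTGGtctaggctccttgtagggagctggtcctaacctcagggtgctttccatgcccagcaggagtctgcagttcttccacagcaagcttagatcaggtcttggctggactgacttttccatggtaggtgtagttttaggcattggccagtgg
The windows span chr12:86471109-86471308 (E31), chr12:86504410-86504609 (E43), chr12:86466267-86466466 (E30), chr12:86455177-86455376 (E28), chr12:86450982-86451181 (E27), chr12:86386019-86386218 (E14) and chr12:86497228-86497427 (E40). E31 had no match in its window, E30 and E40 each had a KLF box, and E28 had the ESRRB half-site 23 bases from its summit.

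Before depletion, accessibility was low upstream of *Esrrb* and around its first start, and high in the downstream part of the gene. Levels of NT cells, given as TMM-scaled CPM per kb of peak and averaged over the 3 lines, ran from 1.73 to 68.3 with a median of 8.46. The 3 most accessible peaks were E42 at 68.3, E40 at 45.9 and E43 at 45.2, which lie within the last introns and exons of the gene. E42 (chr12:86501618-86502563, intron) held 49.4 and 48.9 CPM in the SOX2-FKBP NT libraries, 80.5 and 64.5 in OCT4-FKBP and 82.3 and 62.2 in NANOG-FKBP. The SOX2-FKBP libraries were the lowest of these and did not overlap with those of the other lines.

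**Figure D1:**
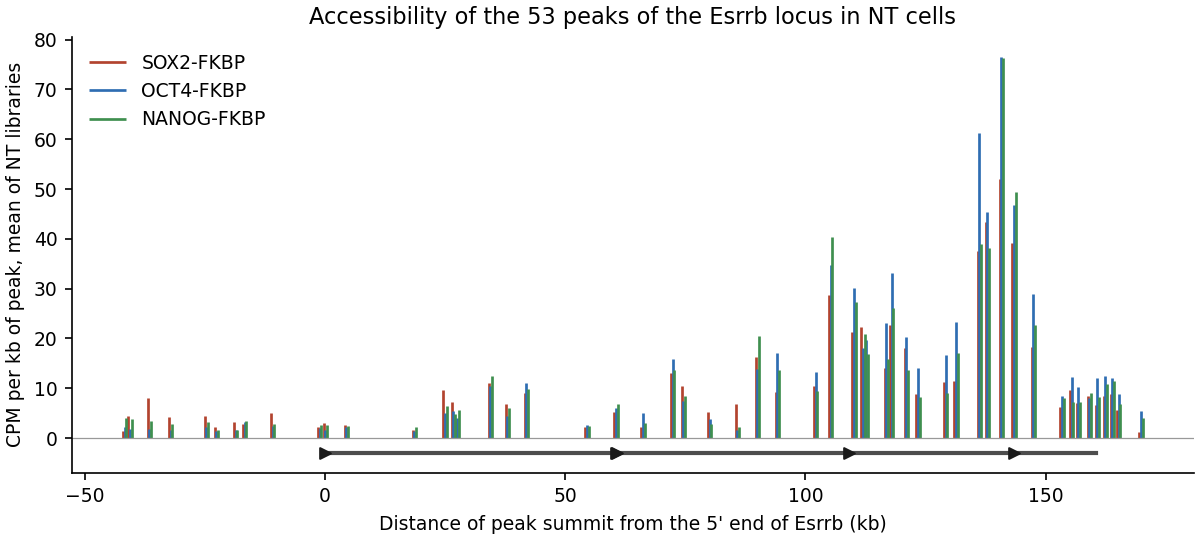
Accessibility of the 53 peaks in NT cells, as mean CPM per kb of peak (vertical lines, 1 colour a line) against the distance of the summit from the 5′ end of *Esrrb* in kb; the bar is the gene and the arrowheads are annotated transcript starts. The tallest lines, E42, E40 and E43, stand more than 130 kb into the gene, and the mean over the lines stays below 5 for each of the 10 peaks upstream of the gene.

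The peaks at the 4 start regions differed in level and in response. E11, at the start of the longest transcript (chr12:86360955-86361597, untranslated region), held 0.734 to 2.6 CPM in 30 libraries and had no fragment in replicate 1 of OCT4-FKBP at 24 hpd, where 3 counts would be 0.463 CPM. E21, at the starts shared by 3 transcripts (chr12:86421078-86422908, untranslated region), held 7.87 to 15.1 CPM in all 31 libraries. Neither passed the test at any time in any line, and at 24 h of OCT4 depletion their log2 fold changes were -0.33 ± 0.61 and 0.36 ± 0.23 (standard error, n = 2 against 2, edgeR).

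The downstream start regions fell after OCT4 loss. E43 (chr12:86503775-86504878, exon of a short transcript) held 53.9 and 49.7 CPM in OCT4-FKBP NT, 51.3 and 53.3 at 2 hpd, 43.3 and 47.2 at 6 hpd, and 7.41 and 15.9 at 24 hpd. Its 24 h libraries lay well below all others of the line, a log2 fold change of -2.14 ± 0.30 (adjusted p = 1.03e-06). E31 (chr12:86469844-86471736, summit in an intron) went from 59.9 and 54 CPM in NT to 41.5 and 39.8 at 2 hpd, 29.4 and 31.5 at 6 hpd and 25.3 and 19.5 at 24 hpd. Every later group lay below the one before it, and the change passed the test at 6 h (-0.90 ± 0.26, adjusted p = 0.0132) and at 24 h (-1.33 ± 0.27, adjusted p = 0.000238). The 6 h call was lost without either 6 h library or replicate 1 of NT. In SOX2-FKBP cells at 24 hpd the changes of E43 and E31 were -0.27 ± 0.16 and -0.33 ± 0.15, and neither passed (adjusted p = 0.235 and 0.102).

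SOX2 depletion was followed to ask when and how far the locus loses accessibility without SOX2. At 0.5 and 1 h no member passed the test in either direction with edgeR's quasi-likelihood test and Benjamini-Hochberg adjustment, and DESeq2 likewise called none, while 3.14% and 5.46% of the 160432 tested peaks were lost and 0.158% and 0.889% gained. At an unadjusted p under 0.05 there were 2 and 5 members, and with the replicate number as a block 1 member, E41, was lost at each time. At 2 h 1 of 52 tested members was lost and 1 gained (7.28% and 1.46% of all peaks), at 6 h 5 were lost and 2 gained (9.28% and 2.66%), and at 24 h 11 were lost and 3 gained (14.1% and 9.17%). The members lost at 24 h kept a median of 53% of their NT level, between 34.8% and 72.2%. With the block the losses numbered 4 at 2 h and 9 at 6 h, and shares over all peaks were not taken from that fit. In the fit with the other lines, 5.06%, 6.83% and 10.9% of all peaks were lost at 2, 6 and 24 h, and 9.8% of members at 24 h. Fitted together with the other lines, the losses numbered 0, 0 and 5 at 2, 6 and 24 h, with DESeq2 0, 1 and 9, and without replicate 1 of NT 0, 2 and 7.

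E30 was the member lost earliest. This intronic peak (chr12:86466198-86466593) held 12.4 and 10.4 CPM in SOX2-FKBP NT, 10.3 and 12.1 at 0.5 hpd, 11.3 and 6.12 at 1 hpd, 8.16 and 5.97 at 2 hpd, 7.73 and 6.53 at 6 hpd and 6.09 and 3.75 at 24 hpd. From 2 h on its libraries lay below both NT libraries. The log2 fold change was -0.75 ± 0.23 at 2 h (adjusted p = 0.0283) and -1.25 ± 0.24 at 24 h (adjusted p = 0.00014). The 2 h call was lost without replicate 2 of that group, without either NT library and with DESeq2. In OCT4-FKBP cells E30 held 12 and 15.4 CPM in NT, 16.2 and 17.4 at 2 hpd and 16.2 and 23.7 at 6 hpd, then 2.93 and 10.3 at 24 hpd, where the change of -1.05 ± 0.40 did not pass (adjusted p = 0.0525) but was called with the block.

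Around E30, the neighbouring intronic peaks E28, E29, E32, E34 and E35 were also among the 24 h losses of SOX2-FKBP, as were E42 and E46 farther downstream and E9, E14 and E19 upstream. E35 (chr12:86478507-86479702, named after its values were seen) fell from 24.6 and 29.9 CPM in NT to 12.6 and 16.3 at 24 hpd (log2 fold change -0.92 ± 0.19, adjusted p = 0.000224). Gains were seen in the 5′ part of the locus. E12 (chr12:86364952-86366305, intron) rose from 3.9 and 3.32 CPM to 7.26 and 7.18 at 2 hpd and 7.62 and 5.19 at 24 hpd (0.94 ± 0.24 at 2 h, adjusted p = 0.00659), above NT in all 4 libraries. Its 2 and 24 h calls were lost with DESeq2 and without either NT library. E3 (chr12:86324248-86324811, intergenic) rose from 4.52 and 4.47 CPM to 10.3 and 8.17 at 24 hpd (1.01 ± 0.23, adjusted p = 0.000964). Between 2 and 24 h of SOX2 depletion, 7 members fell and 1, E3, rose (5.99% and 5.02% of all peaks), and leaving out 1 of the 4 libraries left 2 to 4 of the falls.

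OCT4 depletion asked the same of the second pioneer factor. Few members passed the test in the first hours and most of them at 24 h. At 2 h 1 of 51 tested members was lost and 2 gained (5.10% and 1.92% of all 166430 peaks), at 6 h 3 were lost and 2 gained (7.97% and 4.12%), and at 24 h 28 were lost and none gained (12.7% and 10.8%; 26 and 0 with DESeq2, 26 and 1 with its size factors in edgeR). The 28 lost members, 54.9% of those tested, kept a median of 34.3% of their NT level, between 8.84% and 61.6%, and in 27 of them both 24 h libraries lay below both NT libraries. The median log2 fold change was -1.08 over the members and -0.0127 over all peaks. With the replicate number as a block, 7 members were lost at 2 h and 7 at 6 h, where 7 were also gained, and 30 were lost and 1, E33, was gained at 24 h. Shares over all peaks were not taken from the block fit, so these counts cannot be set against them. Without replicate 1 of the 24 h group, the deeper of that pair, 18 members were lost at 24 h.

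Summed over all 53 peaks, the 2 OCT4-FKBP libraries of 24 hpd held 34.9% and 44.1% of the NT mean, against 90.4% and 91.4% at 2 hpd and 90% and 86.3% at 6 hpd. The SOX2-FKBP libraries of 24 hpd held 85.2% and 79.5%, and the NANOG-FKBP ones 75.9%, 136% and 78.3%. The OCT4-FKBP pair at 24 hpd was the lowest of the 31 libraries, and the high NANOG-FKBP value belonged to the replicate rich in mitochondrial counts. That replicate was at 107% with total-count scaling. In the SOX2-FKBP line the 24 h libraries were likewise the lowest of their course. Starts of marker genes were also compared between NT and 24 hpd in OCT4-FKBP cells. The sum over the 5 stem cell genes, which counts the *Esrrb* starts of this locus again, went from 175 to 178 CPM per kb to 112 to 129. The primitive endoderm genes *Gata6*, *Sox17* and *Foxa2* summed to 27.9 to 29.2 in NT and 32.2 to 45.1 at 24 hpd. Of these, *Gata6* (5.76 to 5.84 against 7.71 to 10.2) and *Sox17* (13.5 to 15.4 against 15.9 to 21.5) were higher at 24 hpd. *Foxa2* (8.01 to 8.69 against 8.52 to 13.4) overlapped. *T* (5.90 to 7.21 against 4.48 to 9.18) and the neural genes *Pax6* and *Sox1* (25.7 to 28.5 against 22.9 to 35.4) overlapped between the groups. Within the stem cell sum, *Pou5f1* (40.2 to 51.4 against 20.5 to 29.1), *Nanog* (39.4 to 46.6 against 17.3 to 19.4) and *Esrrb* itself (21.3 to 22.9 against 8.75 to 9.16) were lower at 24 hpd, while *Zfp42* (51.5 to 52.7 against 51.5 to 53.9) and *Sox2* (13.3 to 14.6 against 11.7 to 19.9) overlapped. The part of the genes other than *Esrrb* in the fall of the locus was not tested. Fewer cells with an open locus cannot be told apart from less accessibility per cell in these bulk samples.

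**Figure D2:**
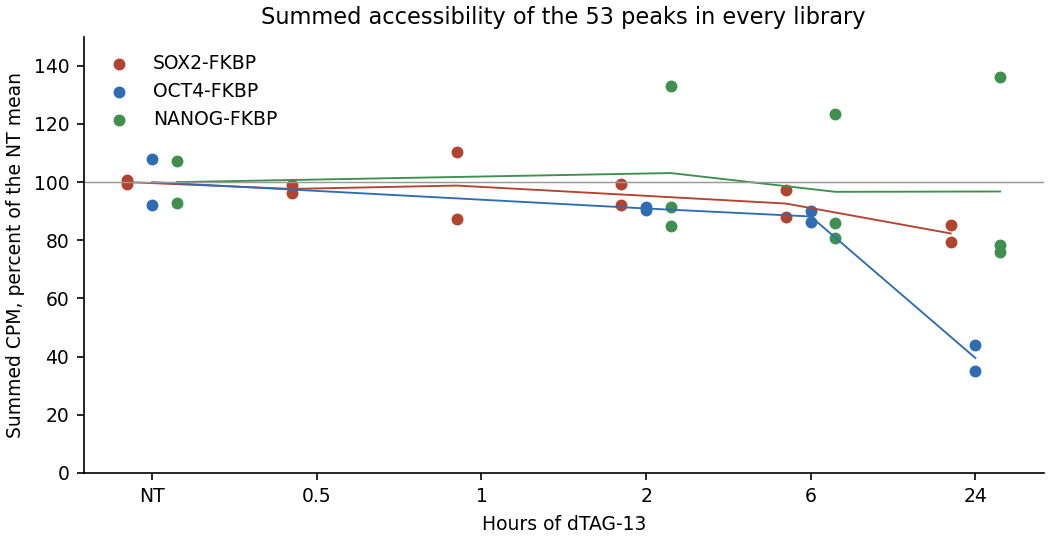
Summed CPM of the 53 peaks in every library, as percent of the NT mean of its line (points), against hours of dTAG-13, evenly spaced; lines join group means. The OCT4-FKBP points at 24 h sit at 34.9% and 44.1%, below every other point, and 1 NANOG-FKBP point per treated time sits above 120%.

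The losses of the OCT4 course mostly came between 2 and 24 h. Compared directly, without the NT libraries, 23 of 51 members were lower at 24 h than at 2 h (8.25% of all peaks), 22 of which were among the 28 losses, and without replicate 1 of the 24 h group 9 were lower. E40 (chr12:86497059-86497496, intron) held 31.1 and 22.6 CPM in NT, 27.4 and 27.1 at 2 hpd, 23.6 and 23.9 at 6 hpd, and 2.32 and 3.44 at 24 hpd. Its libraries lay within the NT range until 6 h and far below it at 24 h (log2 fold change -3.20 ± 0.31, adjusted p = 6.24e-10). E35, the member with the most negative change, went from 43.5 and 35.5 CPM in NT to 23.6 and 25 at 2 hpd, 20.3 and 18.9 at 6 hpd and 3.55 and 3.44 at 24 hpd (-3.47 ± 0.46, adjusted p = 2.47e-07). E42, the most accessible peak, went from 80.5 and 64.5 CPM to 15 and 30 (-1.67 ± 0.34, adjusted p = 0.0003).

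E28 fell at every time of OCT4 depletion. This intronic peak (chr12:86454676-86456589) held 32.9 and 32.7 CPM in NT, 18.9 and 22.3 at 2 hpd, 14.7 and 16.3 at 6 hpd and 3.86 and 5.57 at 24 hpd, with no overlap between groups. The log2 fold changes were -0.66 ± 0.21 (adjusted p = 0.0399), -1.07 ± 0.21 (adjusted p = 0.00018) and -2.78 ± 0.25 (adjusted p = 1.2e-10). The 2 h call did not survive leaving out any 1 of its 4 libraries, whereas the 6 and 24 h calls did. In SOX2-FKBP cells E28 went from 18.4 and 17.3 CPM in NT to 14.7 and 12.5 at 2 hpd and 11.3 and 9.71 at 24 hpd (-0.79 ± 0.17 at 24 h, adjusted p = 0.000594), and the 2 h value was called lost with the block.

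E14 moved in both directions. This peak in the first intron of the longest transcript (chr12:86385801-86387223) held 5.56 and 8.71 CPM in OCT4-FKBP NT, 14.4 and 17.6 at 2 hpd, 11.8 and 18.8 at 6 hpd, and 1.39 and 3.93 at 24 hpd. Its libraries of 2 and 6 hpd lay above both NT libraries and those of 24 hpd below them, with log2 fold changes of 1.16 ± 0.34, 1.09 ± 0.34 and -1.43 ± 0.45 (adjusted p = 0.0266, 0.0247 and 0.0154). In SOX2-FKBP cells E14 held 15.7 and 11.5 CPM in NT, 12.7 and 10.2 at 2 hpd, 8.21 and 7.51 at 6 hpd and 5.89 and 4.33 at 24 hpd. There it fell by 0.85 at 6 h and 1.46 at 24 h on the log2 scale (adjusted p = 0.00249 and 2.12e-06). The gains after OCT4 loss did not pass with DESeq2, with total-count scaling or without replicate 1 of NT. With each of the 4 libraries left out in turn, the 2 h gain was lost in 3 fits and the 6 h gain in 2. Over these fits the gains ranged from 0.88 to 1.55 at 2 h and from 0.74 to 1.49 at 6 h. The 24 h fall did not pass without replicate 1 of 24 hpd (-0.85) or replicate 2 of NT (-1.07).

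**Figure D3:**
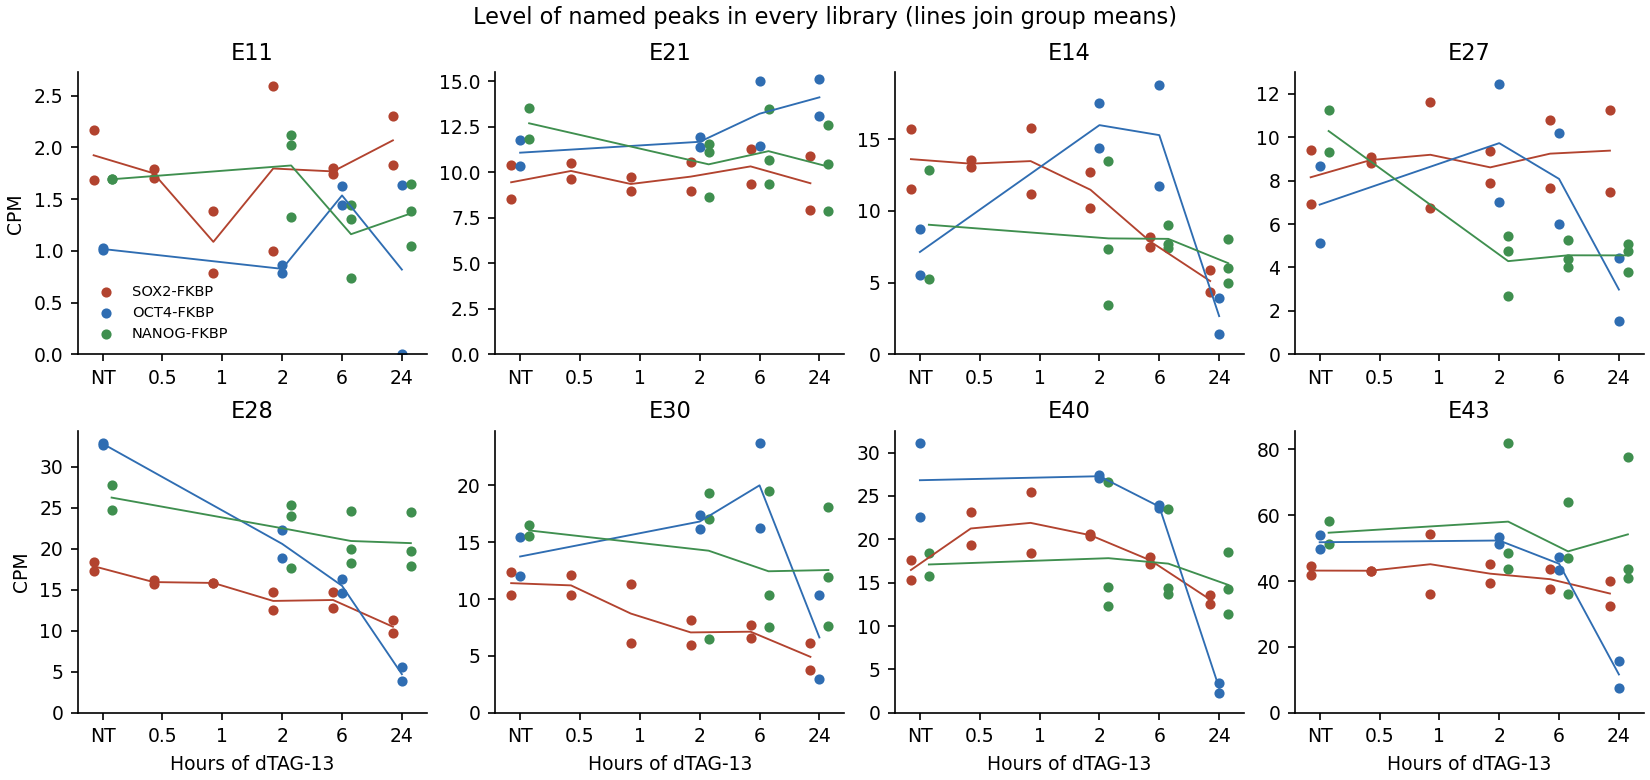
CPM of 8 named peaks in every library (points, coloured by line; lines join group means) against hours of dTAG-13. E28, E40 and E43 fall to 3.86 and 5.57, 2.32 and 3.44, and 7.41 and 15.9 CPM in OCT4-FKBP at 24 h, E14 first rises and then falls in that line, and E21 stays between 7.87 and 15.1 throughout.

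Few members passed the test after NANOG depletion. At 2 h 1 of 51 members was lost (0.938% of all peaks), at 6 h none (1.08%) and at 24 h 1 (2.25%), and none was gained at any time (0.0162%, 0.0367% and 0.288%). At an unadjusted p under 0.05 there were 3, 3 and 6 members, and DESeq2 called 0, 0 and 1. No member was lower at 24 h than at 2 h (0.0811% of all peaks), with 3 at an unadjusted p under 0.05. The member lost at 2 h, E16, had 12 and 21 fragments in the NT libraries and 5, 1 and 3 at 2 hpd, and was no longer called without any 1 of 4 of these 5 libraries. At 24 h 36 of 51 members had a negative log2 fold change, and the median was -0.13 over the members and 0.0259 over all peaks.

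The share of nuclear counts on chromosome 8 was 5.302 to 5.455% in SOX2-FKBP and 7.662 to 7.941% in OCT4-FKBP libraries, so it differed between lines. The NANOG-FKBP libraries fell into sets by this share. Replicate 1 of every group held 5.73 to 5.82%, replicate 2 of NT and replicate 3 of the treated groups 7.32 to 7.39%, and the treated replicates 2 held 6.66 to 6.68%, with no NT library at that share. Against the NT library of the same set, the locus total was 85.4%, 75.3% and 70.8% at 2, 6 and 24 hpd in the first set and 91.3%, 92.7% and 84.3% in the second. Both sets were thus lowest at 24 hpd, as SOX2-FKBP was at 85.2% and 79.5% of its NT mean. With the sets as a block, an alternative chosen after seeing the data, 1, 1 and 2 members were lost at 2, 6 and 24 h (E16, E27, and E27 with E35). In that fit 14 members had an unadjusted p under 0.05 with a lower level at 24 h. Shares over all peaks were not taken from that fit, so these counts cannot be set against them.

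E27 was the member lost at 24 h of NANOG depletion. It lies in an intron (chr12:86450803-86451302) and held 11.3 and 9.3 CPM in NT, 4.75, 2.66 and 5.46 at 2 hpd, 4, 4.41 and 5.28 at 6 hpd, and 4.78, 5.09 and 3.8 at 24 hpd. All 9 treated libraries lay below both NT libraries. The log2 fold changes were -1.15 ± 0.33, -1.22 ± 0.33 and -1.22 ± 0.32, of which the last passed (adjusted p = 0.0963, 0.0553 and 0.0282). Without replicate 2 the 24 h change was -1.26 and still passed, and it was lost without replicate 1 or 3 or replicate 1 of NT. In SOX2-FKBP cells at 24 hpd E27 held 11.3 and 7.5 CPM against 9.39 and 6.92 in NT. The difference between the changes in the SOX2-FKBP and NANOG-FKBP lines was 1.42 ± 0.45 (edgeR, adjusted p = 0.0473). E27 was 1 of 2 members called lower after NANOG depletion in that comparison (1.19% of all peaks), and no member was lower after SOX2 depletion (5.59%). That comparison was not repeated under the alternatives or with a library left out.

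**Figure D4:**
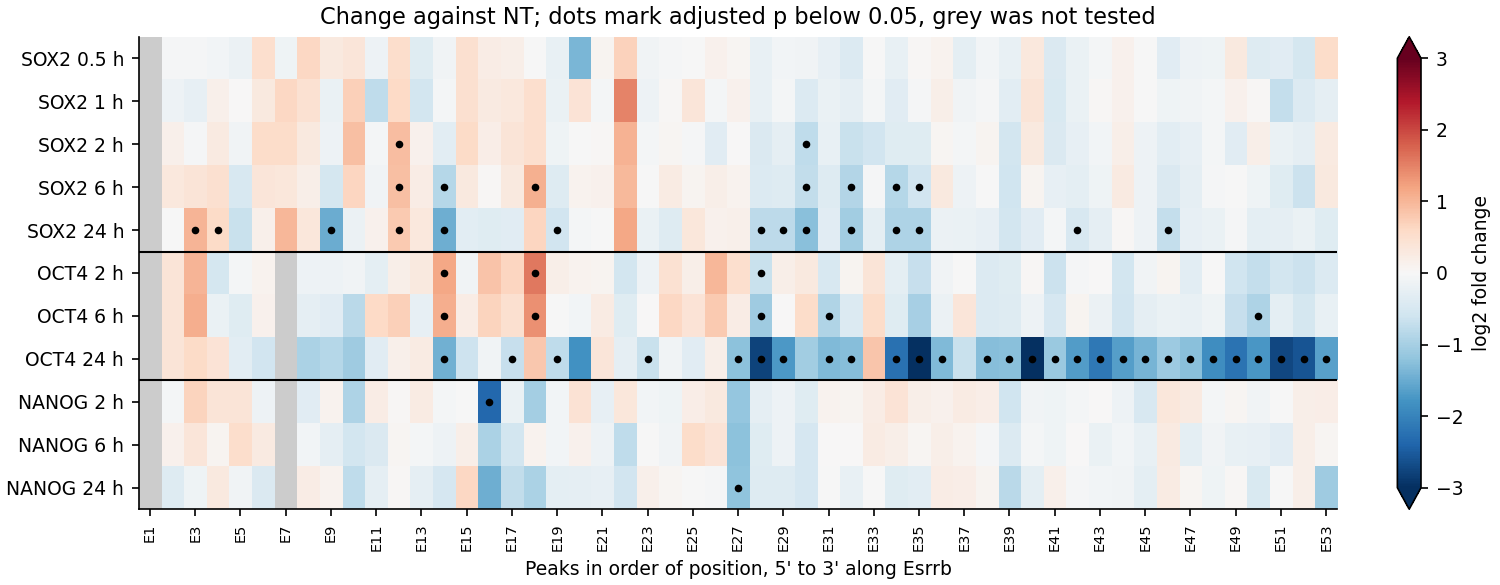
Log2 fold change against NT of each peak (columns, 5′ to 3′) at each time of depletion (rows), from blue for lower to red for higher; black dots mark an adjusted p below 0.05 and grey a peak that was not tested. The row of OCT4 at 24 h carries 28 dots, 25 of them from E23 on, and the NANOG rows carry 2 in all.

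Testing the difference between lines separated the SOX2 and OCT4 courses at 24 h. At 2 h no member differed (0.374% of all peaks were lower after OCT4 and 1.20% after SOX2 depletion, 5 members had an unadjusted p under 0.05, DESeq2 called none, and the block gave 1 member in each direction). At 6 h none was lower after OCT4 (0.847%) and 1, E14, was lower after SOX2 depletion (1.88%), with a difference in log2 fold change of -1.88 ± 0.49 (adjusted p = 0.0211) that was not called with DESeq2, nor with 5 of the 8 libraries left out in turn. At 24 h 10 of 51 members were lower after OCT4 (1.10% of all peaks) and none after SOX2 depletion (1.67%). These were E28, E35, E40, E43, E44, E45, E48, E49, E51 and E52. The differences in log2 fold change were 2.89 ± 0.41 for E40 (adjusted p = 2.2e-05), 2.03 ± 0.34 for E28 (adjusted p = 0.000212) and 1.91 ± 0.41 for E43 (adjusted p = 0.00453), the last of which was 1.43 and not called without replicate 1 of OCT4-FKBP at 24 hpd. With the block 20 members differed at 24 h, and without replicate 1 of OCT4-FKBP at 24 hpd 4, without replicate 2 of SOX2-FKBP at 24 hpd 6 and without replicate 1 of SOX2-FKBP NT 6. Against the NANOG-FKBP line, 19 members were lower after 24 h of OCT4 depletion (6.00% of all peaks) and 1, E18, after NANOG depletion (2.89%). Without replicate 2 of NANOG-FKBP at 24 hpd this number was 11, as it was without replicate 1 of OCT4-FKBP at 24 hpd or of its NT group.

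Members lost in both lines at 24 h numbered 9, which is 81.8% of the 11 losses of SOX2-FKBP and 32.1% of the 28 losses of OCT4-FKBP. Over the 155681 peaks tested in both fits, the shared losses were 54.9% of those of SOX2-FKBP and 62.8% of those of OCT4-FKBP. These shares rest on unlike bases. After OCT4 depletion 28 of 51 tested members but 12.7% of all peaks were lost, and after SOX2 depletion 21.2% of members and 14.1% of all peaks. In the fit that gave the OCT4 losses, the SOX2 shares were 9.8% of members and 10.9% of all peaks. The 2 SOX2 losses not shared with OCT4-FKBP were E9, upstream of the gene, and E30. E9 fell from 3.72 and 4.76 CPM to 1.32 and 1.63 in SOX2-FKBP cells (log2 fold change -1.50 ± 0.31, adjusted p = 0.000333), and was at -0.86 ± 0.48 in OCT4-FKBP cells (adjusted p = 0.216).

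The losses after OCT4 depletion were counted along the gene. Divided at the annotated landmarks, 0 of 8 tested members upstream of the first start were lost at 24 h, 3 of 10 between the first and second starts, 20 of 28 between the second start and the gene end, and 5 of 5 past the gene end. The medians of the log2 fold change in these stretches were -0.45, -0.48, -1.26 and -2.22. For SOX2 depletion at 24 h the counts were 1 of 9, 2 of 10, 8 of 28 and 0 of 5, with medians of 0.14, -0.19, -0.26 and -0.27. Over all tested peaks 12.7% were lost at 24 h of OCT4 depletion and 14.1% at 24 h of SOX2 depletion. The 5 peaks past the gene end, E49 to E53, fell by 1.63 to 2.72 on the log2 scale after OCT4 depletion. NT level moved with these counts: of the 31 members at 5 CPM or more in OCT4-FKBP NT 26 were lost at 24 h, and of the 20 below it 2. Its part in the placement of the losses was not tested.

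**Figure D5:**
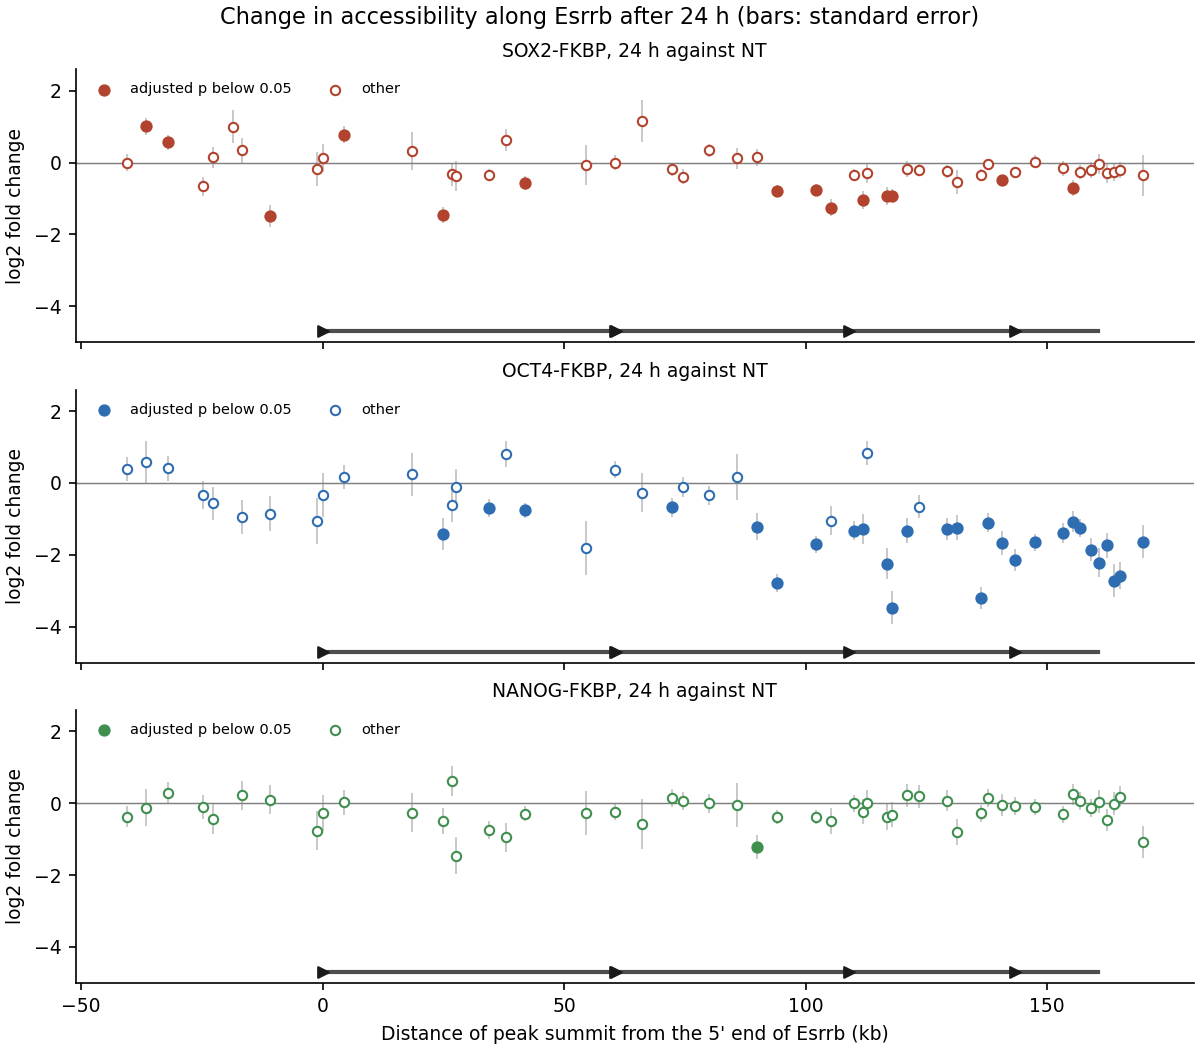
Log2 fold change at 24 h against NT in the 3 lines (panels) against the distance of each summit from the 5′ end of *Esrrb* in kb; bars are standard errors, filled points have an adjusted p below 0.05, and the bar with arrowheads is the gene with its transcript starts. After OCT4 loss filled points run from E27 to the last peak, E53, with few open ones between, whereas the SOX2 panel has 14 filled points, of which 6 lie from E28 to E35, and the NANOG panel has 1.

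Peaks flanking the interval were read in the same way. The last member at the 5′ edge that was tested, E2, was at 0.38 ± 0.33 at 24 h of OCT4 depletion and the nearest peak outside it at 1.39. At the 3′ edge E53 was at -1.63 and the nearest peak outside at -0.84. Of the 10 peaks next to the interval upstream 2 were lost and 2 gained, and of the 9 tested downstream 1 was lost. Over the 6882 tested peaks of chromosome 12 the median change was -0.0379 and 13.3% were lost.

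Short sequence matches were counted in the members and in all tested peaks, on both strands. Over whole peaks, a SOX core was present in 62.3% of members and 61.6% of tested peaks, the octamer ATGCNAAT in 18.9% and 9.89%, the ESRRB half-site in 35.8% and 21.5%, the KLF box in 39.6% and 34.2%, and the TEAD core GGAATG in 41.5% and 38.9%. No member held the composite of TTGT, 1 free base and ATGNNAA, which was found in 1.32% of tested peaks. Members were 760 bp wide in the median and the tested peaks 711 bp, and the matches were not adjusted for width. Of the 28 members lost at 24 h of OCT4 depletion, 20 held a SOX core, 13 the ESRRB half-site and 6 the octamer. Within 200 bases around the summit, the octamer occurred in E35 and E44 alone, 3.77% of members against 3.85% of tested peaks, so the higher share over whole peaks was not seen there. In the same windows the shares were 30.2% and 24.8% for the SOX core, 15.1% and 8.55% for the ESRRB half-site, 18.9% and 13.7% for the KLF box and 13.2% and 13.7% for the TEAD core.

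Other genes of the naive network were read with the same interval rule. Over 20 loci with 382 tested peaks, 99 peaks (25.9%) were lost and 18 (4.71%) gained at 24 h of OCT4 depletion. Over all peaks these shares were 12.7% and 10.8%. Each locus had at least 1 loss, and the loci held 3 to 40 tested peaks. At 24 h of SOX2 depletion 76 of 376 (20.2%) were lost and 10 (2.66%) gained, beside 14.1% and 9.17% of all peaks. At 24 h of NANOG depletion 6 of 382 (1.57%) were lost, beside 2.25% of all peaks. *Tfcp2l1*, which encodes another factor of the naive network, lost 18 of 33 peaks after OCT4 depletion, with a median log2 fold change of -1.20, and 8 of 33 after SOX2 depletion. *Zfp42* lost 10 of 20, *Fgf4*, the gene of a growth factor of the early embryo, 10 of 18, and *Klf2* 7 of 16. Losses were fewer at *Sall4* (2 of 21), *Ncoa3* (4 of 40), *Nr5a2* (5 of 40) and *Tet2* (4 of 30). For *Stat3* 1 of 25 was lost and 4 were gained. Among the genes of the other oestrogen-related receptors, *Esrra* had 3 lost and 2 gained of 12 and *Esrrg* 3 lost and 3 gained of 24, beside 12.7% lost and 10.8% gained over all peaks.

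By its median change over all members, *Esrrb* ranked 7 of 2682 loci with at least 20 tested peaks at 24 h of OCT4 depletion, counted from the most negative, and 250 at 24 h of SOX2 depletion. The loci whose medians over the 11 treated groups were most like those of *Esrrb* were *Cyp19a1*, *Dlgap3*, *B3gnt2*, *Etv5* and *Arhgap26*, with root mean square differences of 0.066, 0.0673, 0.0866, 0.0991 and 0.116 on the log2 scale against a median of 0.371 over all loci. Their medians at 24 h of OCT4 depletion were -1.05, -1.11, -0.99, -0.95 and -0.80, beside -1.08 for *Esrrb*.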

How the data were processed

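ATACseq libraries were made from 3 degron lines, and 31 of the 45 samples, those of the depletion time courses, were used; the overexpression, washout and edited-clone samples are not analysed here. Per the labels and methods, the authors aligned reads to mm10 with BWA 0.7.17-r1188, filtered with SAMtools 1.10, removed duplicates with Picard 2.12.0, called peaks with MACS2 on merged data, and deposited raw fragment counts per peak. The deposited peak list also gives fold enrichment and −log10 q-values, used only to describe peaks. Genes came from GENCODE vM21 and sequence from GRCm38, the same build.

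Counts were tested with edgeR 4.0.16 (quasi-likelihood, TMM, R 4.3.3) over all peaks: SOX2 against NT in a fit of 12 libraries (more than 10 counts in more than 2 libraries, 160432 peaks) and all else in a fit of 27 libraries (more than 10 in more than 6, 166430 peaks). Peaks with Benjamini-Hochberg adjusted p below 0.05 were called lost or gained. Standard errors are the log2 fold change over the root of F. CPM is TMM-scaled over the 31 libraries. E1 passed neither filter and E7 only the first. Alternatives were DESeq2 1.42.0, other scalings, filters and fits, the replicate block and each library left out. The code was tested on simulated data. Counts cover 1817191 to 17575631 fragments a library, so low peaks carry more counting error.

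Members, lists and tests were chosen with earlier results of these data known. Peaks named were those within 500 bp of an *Esrrb* start, the most negative past the threshold at 2 h of SOX2 (5) or OCT4 (3) loss and at any time of NANOG loss (3), with 5 CPM or more in NT and both or all treated libraries below NT, the 3 most positive with 5 CPM or more when treated, and the 3 highest per kb in NT; fewer met some conditions. Others were named after their values were seen. The methods name duplicates and an independent SOX2-FKBP clone but do not assign libraries to separate cultures, so p-values measure the spread between libraries, which may be technical.

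Replicate numbers paired the libraries: deviations of same-numbered libraries from their group means correlated at 0.118 to 0.504 in SOX2-FKBP and 0.347 to 0.614 in OCT4-FKBP, over peaks with a mean of 50 counts or more. In NANOG-FKBP, treated libraries correlated with each other at 0.268 to 0.638 but with NT at -0.12 to 0.358, and numbers were not taken to pair them.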

Additional observations from a re-analysis of the deposited data

Results flagged for a closer look

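Changes that differed between lines were singled out by the test of the difference itself (edgeR, adjusted over all peaks). At 24 h, 10 members differed between SOX2 and OCT4 depletion and 20 between OCT4 and NANOG depletion, 19 of which were lower after OCT4 loss and 1, E18, higher. Between SOX2 and OCT4 depletion the differences in log2 fold change were 2.03 for E28, 2.89 for E40 and 1.91 for E43 at 24 h, each less negative after SOX2 loss, and -1.88 for E14 at 6 h. Between OCT4 and NANOG depletion at 24 h they were -2.39 for E28, -1.32 for E31, -2.91 for E40, -1.63 for E42 and -2.07 for E43, of which E31 (-0.99) and E42 (-1.12) did not pass without NANOG-FKBP replicate 2 of 24 hpd. The OCT4-FKBP line is of another parental strain than the other lines, and the part of the strain cannot be told apart from that of the factor.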

How the results depend on the processing

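Losses after 24 h of OCT4 depletion numbered 21 to 30 under the alternatives to the fit and 18 to 26 with 1 library left out. Small counts moved most. For SOX2, the 27-library fit gave 0, 0 and 5 losses at 2, 6 and 24 h, DESeq2 0 and 1 at 2 and 6 h, the minimum of 10 counts in every library 1 at 1 h and 2 at 2 h, only the groups compared 1, 4 and 9 at 0.5, 2 and 6 h, and the replicate block 1, 1, 4 and 9 at 0.5, 1, 2 and 6 h. For OCT4 at 2 h, DESeq2 size factors, no count filter and only the groups compared gave 0, total counts 2, the count minimum 3 and the block 7, and at 6 h total counts and the count minimum gave 5 and the block 7. For NANOG, DESeq2, total counts and only the groups compared gave 0 at 2 h, the count minimum 0 at 2 and 24 h, the block 2, 1 and 2 at 2, 6 and 24 h, and DESeq2 size factors, no count filter and only the groups compared 1 at 6 h. The difference between SOX2 and OCT4 gave 20 members at 24 h with the block, 1 in each direction at 2 h and 2 in each at 6 h; E14 at 6 h was lost with DESeq2, total counts and the count minimum, which left 0, and the count minimum gave 1 member the other way. Between OCT4 and NANOG, total counts and the count minimum left 0 of the 1 higher after OCT4. Falls from 2 to 24 h of SOX2 depletion numbered 4 with DESeq2. The cause was not tested. Shares over all peaks were not taken from these alternatives, except the 27-library fit.

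With 1 library left out, losses ranged from 0 to 1 at 1 h, 0 to 1 at 2 h, 2 to 3 at 6 h and 7 to 10 at 24 h for SOX2, 0 to 0 at 2 h and 1 to 3 at 6 h for OCT4, and 0 to 1 at 2 and 24 h for NANOG. Falls from 2 to 24 h ranged from 2 to 4 for SOX2 and 9 to 23 for OCT4. The differences ranged from 4 to 9 at 24 h and 0 to 1 at 6 h for SOX2 and OCT4, and from 11 to 19 and 0 to 1 for OCT4 and NANOG. A lone library was assumed to vary like the other groups. With the chromosome 8 share as a block, NANOG losses numbered 1 at 6 h and 2 at 24 h. That block and the alternatives for the 24 h against 2 h and OCT4 against NANOG comparisons were added after the data were seen. The locus total at 2 h of OCT4 depletion was 90.9% of NT with TMM and 89.7% with total counts. Within 200 bases of the summit the SOX core, octamer, ESRRB half-site, KLF box and TEAD core were in 30.2%, 3.77%, 15.1%, 18.9% and 13.2% of members, against 24.8%, 3.85%, 8.55%, 13.7% and 13.7% of tested peaks. The NANOG block pairs libraries by number only, and no called change of a named member turned direction under the alternatives run. With 2 or 3 libraries a group and peaks of a few CPM, small changes were not detectable at this depth.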
